A study of Mus musculus with 11 samples.

Results

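Pancreatic islets of multipara mice were compared with islets of virgin mice, both without treatment, by bulk RNA-seq. The comparison holds 4 of the 11 libraries of the series, 2 labelled multipara and 2 labelled virgin, chosen by their labels alone. All mice were wild-type C57BL/6J females. Multipara mice entered the model at 9 weeks of age, went through 3 pregnancies in a row, and gave islets 3 weeks after the last delivery, and virgin mice of the same age were the controls. The other 7 libraries, 4 multipara and 3 virgin, came from mice injected with S-961, which blocks the insulin receptor, and serve only for values set side by side at the end. How many mice gave islets to a library is not given in the sources used here, so p-values measure the spread between these libraries, which may be technical. The comparison asks what repeated pregnancy leaves behind in islets before the demand for insulin is raised.

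An islet holds insulin-producing β cells together with glucagon-producing α cells, somatostatin-producing δ cells and PP cells. During pregnancy, prolactin and placental lactogens act through the prolactin receptor and STAT5 on β cells, which then make serotonin and divide, and the gain in β cells recedes after delivery. Islet RNA pools all these cells and whatever blood, immune, exocrine and nerve tissue comes with the islets, so that fewer cells of a type and less RNA per cell cannot be told apart. Levels are given as CPM, counts scaled to the size of each library. Differences are log2 fold changes of multipara over virgin islets. The ± value is an approximate standard error (SE), the size of the fold change over the square root of edgeR's F statistic. It was not fitted directly and can be too small where a group holds few counts.

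The libraries held 32234146 and 31159447 counts (virgin) and 26516117 and 22028507 counts (multipara), and *Ins1* with *Ins2* took 35.3% to 41.4% of them. The multipara libraries were less alike than the virgin ones. Of 15812 genes tested, 79.1% lay within 0.5 log2 CPM of each other in multipara replicates 1 and 2, against 89.3% in the virgin pair. In multipara replicate 1, 1468 genes were more than 1 log2 unit above replicate 2 and 177 were more than 1 below it. The genes farthest above were *Glycam1* and *Ccl21a*, products of lymphoid tissue, the antibody genes *Ighg1*, *Ighg2b*, *Ighg3* and *Igkv4-68*, the neutrophil gene *Ngp*, and *Ubd*. For this reason a gene was called close when both pairs of replicates lay within 0.5 log2 CPM and the 2 groups did not overlap.

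**Figure D1:**
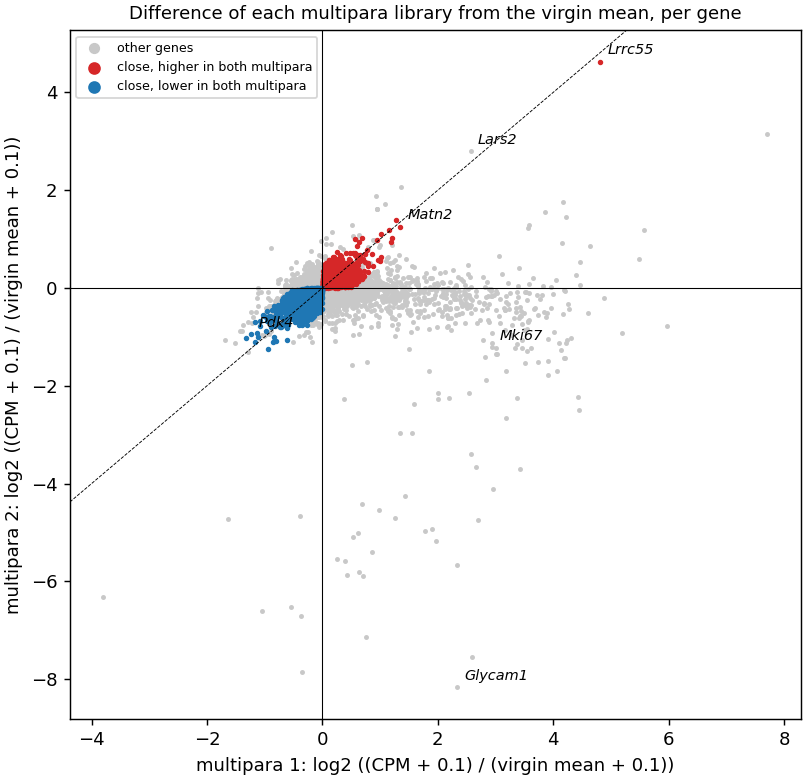
Each point is 1 of 11099 genes with an average log2 CPM of at least 2. The axes give the log2 ratio of multipara replicate 1 (horizontal) and multipara replicate 2 (vertical) to the mean of the virgin libraries, after adding 0.1 CPM. Genes with close replicates higher in both multipara libraries are red and those lower are blue; the arm to the right along 0 holds genes raised in replicate 1 alone, such as *Mki67*, while *Lrrc55* lies on the dashed line of equality.

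No gene passed an adjusted p of 0.05 in edgeR's quasi-likelihood test (0.0% of 15812; smallest adjusted p 0.0561), while 889 (5.62%) had an unadjusted p under 0.05, 399 (2.52%) higher and 490 (3.1%) lower. DESeq2 called 56 genes (0.354%), 22 higher and 34 lower, of which 48 were close. The counts turned on multipara replicate 1 and on multipara replicate 2, since edgeR called 31 genes without the former and 1451 without the latter. Both multipara libraries lay above both virgin libraries in 2885 genes (18.2%) and below in 3079 (19.5%). Among them 2340 (14.8%) and 2737 (17.3%) were close. Most of these differences were small: of the 11099 genes with an average log2 CPM of at least 2, 39 (0.351%) were close, higher and past 1.5-fold, and 63 (0.568%) were close, lower and past 1.5-fold. Other than *Lrrc55* and *Matn2*, no gene named by the rule had an adjusted p below 0.719 in edgeR's test. The fold changes below are therefore descriptions of these 4 libraries, beside which membership in the DESeq2 calls is given. On simulated counts, 30 of 183 DESeq2 calls were false at the threshold of 0.05.

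*Lrrc55*, which encodes a leucine-rich repeat protein that is an auxiliary subunit of potassium channels, had the largest difference among the close genes with an average log2 CPM of at least 2. Its level was 0.574 and 0.671 CPM in the virgin libraries (19 and 21 counts) and 20.1 and 17.8 CPM in the multipara libraries (556.66 and 362.37 estimated counts). The choice of close genes fixed that its groups did not overlap and that its replicates were close. The multipara mean was 30.5 times the virgin mean, a log2 fold change of 4.92 ± 0.18 (approximate SE, n = 2 and 2). With 19 and 21 virgin counts, this SE is likely too small. The fold change ran from 4.81 to 5.03 when each library was left out in turn. Its edgeR adjusted p was 0.0561 and its DESeq2 adjusted p 9.33e-45, with a range over all alternatives from 9.33e-45 to 1.0. The gene spans chr2:85162334-85197197 on the minus strand of GRCm38. The 150 bases before the start that RefSeq gives on GRCm38.p6 (chr2:85198751-85198900, minus strand) are shown because this gene leads the comparison, and they hold none of the heat shock motifs described with the chaperones.
Lrrc55: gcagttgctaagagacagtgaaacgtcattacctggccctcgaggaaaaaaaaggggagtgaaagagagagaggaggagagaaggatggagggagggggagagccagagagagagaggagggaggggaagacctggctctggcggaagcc

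*Matn2* encodes matrilin 2, a protein of the extracellular matrix (chr15:34306677-34436273, plus strand). Its level was 16.9 and 15.6 CPM in virgin islets and 41.6 and 38.9 CPM in multipara islets, 2.48 times as high, with a log2 fold change of 1.31 ± 0.09 and a range of 1.25 to 1.37 with each library left out. Its edgeR adjusted p was 0.437 and its DESeq2 adjusted p 3.82e-14, the latter being the lowest over the alternatives, whose highest was 1.0. The study named *Lrrc55*, *Matn2* and *Lars2*, which is described later, from these same libraries, so that their direction here is no independent evidence. For the other DESeq2 calls named in the text, the adjusted p likewise reached values up to 1.0 under some alternative, and each was above 0.05 in edgeR's test.

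The other 10 of the 12 close genes with the largest difference upward ran from a log2 fold change of 0.79 to 1.35. *Nupr1*, a stress-responsive regulator of transcription, was at 63.3 and 84.2 CPM in virgin islets and at 143 and 145 CPM in multipara islets (log2 fold change 0.97 ± 0.16). *Pnliprp1*, a lipase-related protein of the exocrine pancreas, was at 4.98 and 3.64 CPM against 10.6 and 11.4 CPM (1.35 ± 0.21). Both were among the DESeq2 calls, and the choice of close genes fixed that the groups did not overlap in either. The exocrine markers moved with *Pnliprp1*. Of 18 tested acinar markers, 16 had a log2 fold change above 0 and 13 were higher in both multipara libraries. Over all genes these shares were 53.2% and 18.2%. The acinar markers had summed levels of 116 and 156 CPM in virgin and 186 and 186 CPM in multipara islets. The part of acinar RNA in the result was not tested. *Tbc1d4*, which controls the traffic of glucose transporters in response to insulin, was at 8.39 and 7.18 against 15.7 and 11.5 CPM (0.81 ± 0.20). That both multipara replicates lay above both virgin libraries was again fixed by the choice.

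Ion channels stood among these genes as well. *Trpm2*, a calcium-permeable cation channel, was at 6.40 and 5.97 CPM in virgin and 12.2 and 9.23 CPM in multipara islets (log2 fold change 0.79 ± 0.19). *Kcna2*, a voltage-gated potassium channel, was at 7.03 and 6.23 against 12.1 and 10.8 CPM (0.79 ± 0.15). By the same choice, the multipara level was higher in each library for both channels. *Ephb6*, an ephrin receptor without kinase activity, was at 2.32 and 3.07 against 6.33 and 5.59 CPM (1.14 ± 0.23), and *Acsf2*, an acyl-CoA synthetase, had a log2 fold change of 0.82 ± 0.23. *Plut*, annotated as antisense RNA beside *Pdx1*, was at 9.96 and 9.29 against 14.3 and 19.4 CPM (0.81 ± 0.18), while *Pdx1* itself, the master regulator of β cell identity, was at 103 and 84.5 against 102 and 123 CPM and overlapped. Whether the counting used strand is not given in the sources used here, so that reads of genes on opposite strands may not be told apart. *mt-Atp8*, a mitochondrial subunit of ATP synthase, was at 398 and 443 against 656 and 802 CPM (0.79 ± 0.14) and was called by DESeq2.

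**Figure D2:**
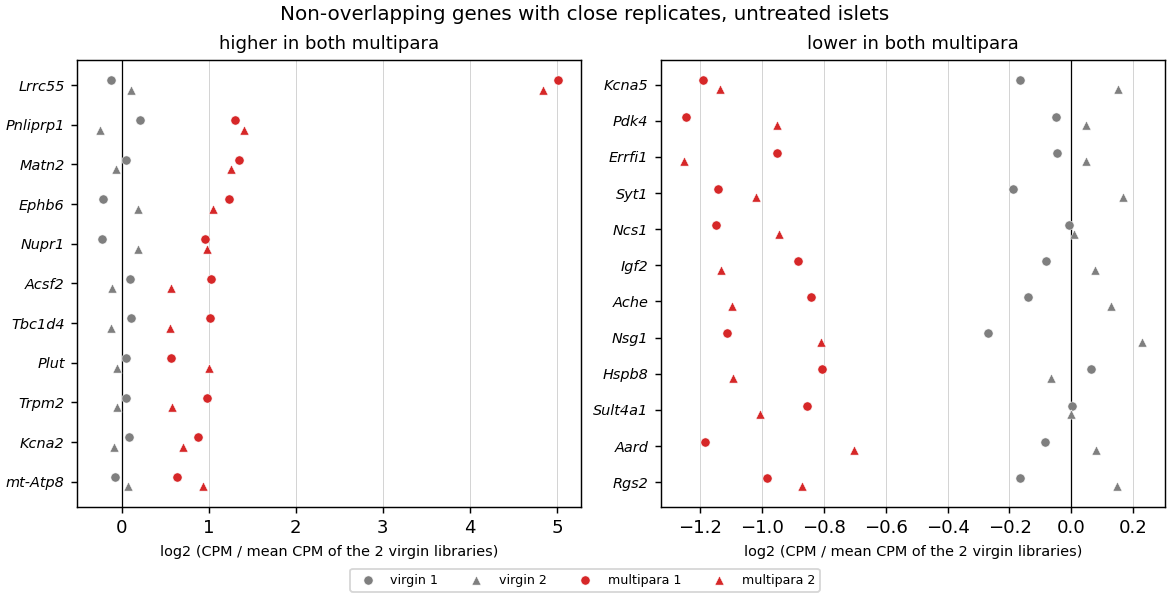
For 11 of the 12 close genes with the largest fitted fold change upward and all 12 downward, every library is shown as the log2 ratio of its CPM to the mean of the virgin libraries (grey, virgin; red, multipara; circles, replicate 1; triangles, replicate 2). *Lrrc55* lies near 5 and the others mostly near 1 above or 1 below 0, with no overlap between the groups, which the choice of genes fixed.

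The 12 genes with the largest close difference downward ran from a log2 fold change of -1.16 to -0.93. *Pdk4*, the kinase that shuts pyruvate out of the mitochondrial citric acid cycle, was at 33.8 and 36.2 CPM in virgin islets and at 14.8 and 18.1 CPM in multipara islets (-1.09 ± 0.13). *Errfi1*, a feedback inhibitor of the EGF receptor, was at 39.0 and 41.6 against 20.9 and 16.9 CPM (-1.09 ± 0.13). *Rgs2*, which shortens signalling by G proteins, was at 327 and 406 against 185 and 200 CPM (-0.93 ± 0.14). All 3 were DESeq2 calls, and both multipara libraries lay below both virgin libraries, which the choice of close genes fixed.

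*Syt1*, the calcium sensor of vesicle release, was at 8.54 and 10.9 against 4.41 and 4.81 CPM (-1.08 ± 0.19). *Ncs1*, a neuronal calcium sensor, was at 7.34 and 7.41 against 3.33 and 3.83 CPM (-1.04 ± 0.18). *Ache*, acetylcholinesterase, was at 14.9 and 17.9 against 9.15 and 7.66 CPM (-0.96 ± 0.16) and was a DESeq2 call. The potassium channel *Kcna5* was lower in both multipara libraries too, at 5.95 and 7.41 against 2.93 and 3.04 CPM (-1.16 ± 0.20), whereas *Kcna2* of the same family was higher. *Nsg1*, a protein of neuronal endosomes, and *Sult4a1*, a sulfotransferase of neurons, had log2 fold changes of -0.95 ± 0.27 and -0.93 ± 0.14. Markers of Schwann cells and neurons moved with these genes. Of 11 tested, 10 were below 0 and 9 were lower in both multipara libraries, beside 46.8% and 19.5% of all genes. Their summed levels were 64.4 and 81.9 CPM in virgin and 53.7 and 56.3 CPM in multipara islets, and their part in the result was not tested. *Igf2*, the insulin-like growth factor, was at 4.98 and 5.56 against 2.86 and 2.40 CPM (-0.999 ± 0.21). *Hspb8*, a small heat shock protein called by DESeq2, and *Aard*, a gene of poorly known function, had log2 fold changes of -0.94 ± 0.16 and -0.93 ± 0.22.

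Of 34 genes listed for pregnancy and lactogen action, 31 were tested, with a median log2 fold change of 0.13 beside 0.02 over all genes. In this list 12 were higher and 5 lower in both multipara libraries. These shares were 38.7% and 16.1%, beside 18.2% and 19.5% of all genes. Of 17 genes known to rise in islets during pregnancy, 14 were above 0 and 11 (64.7%) were higher in both multipara libraries, beside 53.2% and 18.2% of all genes. Of 7 genes of the lactogen receptor and its signalling, 5 were below 0, beside 46.8% of all genes. In both multipara libraries 2 of the 7 (28.6%) were lower and 1 (14.3%) was higher, near the shares of all genes. Whether these groups of genes differ was not tested. *Tnfrsf11b*, osteoprotegerin, a decoy receptor that lactogens induce in β cells, was at 2.17 and 1.98 against 3.94 and 4.51 CPM (1.02 ± 0.22). *Fmo1*, a flavin monooxygenase, was at 20.9 and 11.02 against 30.2 and 31.4 CPM (0.95 ± 0.32), and *Aass*, an enzyme of lysine breakdown, was at 0.242 and 0.192 against 0.687 and 1.03 CPM. *Gbp8*, a guanylate-binding protein, was at 0.966 and 1.60 against 24.7 and 4.56 CPM; both multipara libraries were higher, but replicate 1 was far above replicate 2. It was a DESeq2 call. The prolactin receptor *Prlr* was at 205 and 172 CPM in virgin and 124 and 173 CPM in multipara islets and overlapped. Its feedback targets were at 26.9 and 23.8 against 21.04 and 20.1 CPM for *Socs2* (-0.30 ± 0.10) and at 23.5 and 20.1 against 18.3 and 11.6 CPM for *Cish* (-0.54 ± 0.24), lower in both multipara libraries. *Stat5a*, a transducer of the lactogen signal, was at 8.69 and 9.32 against 12.9 and 10.5 CPM (0.38 ± 0.16). Genes of serotonin synthesis were near the limit of detection, with *Tph2* between 1.15 and 3.11 CPM in the 4 libraries.

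Hormone and identity genes of the other endocrine cells were lower in multipara islets. All 11 tested α cell genes had a log2 fold change below 0 and 9 were lower in both multipara libraries, beside 46.8% and 19.5% of all genes, with a list median of -0.62, which was -0.37 without multipara replicate 1 (10 of 11 below 0). *Gcg*, the glucagon gene and the defining α cell hormone, named here after its values were seen, was at 35197 and 39904 CPM in virgin and 19223 and 27099 CPM in multipara islets (-0.70 ± 0.24). *Gc*, the vitamin D-binding protein that marks α cells, was at 86.8 and 79.9 against 45.7 and 53.2 CPM (-0.75 ± 0.11). Both were DESeq2 calls with no overlap of the groups. *Ttr*, transthyretin, was at 4572 and 5376 against 2024 and 3069 CPM (-0.97 ± 0.25), and the α cell transcription factor *Irx1* had a log2 fold change of -0.64 ± 0.15. Of 7 genes of δ, PP and ε cells, 6 were below 0 and 5 were lower in both multipara libraries, against the same shares of all genes. Somatostatin (*Sst*) was at 4021 and 4814 against 2667 and 3059 CPM (-0.63 ± 0.16). *Rbp4*, the retinol carrier expressed by δ cells, was at 187 and 196 against 110 and 118 CPM (-0.75 ± 0.09), and both genes were DESeq2 calls. Peptide YY (*Pyy*) was at 1985 and 1779 against 1488 and 1552 CPM (-0.31 ± 0.12).

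β cell genes were nearly level. Of 28 tested, 20 were above 0 with a median of 0.07, and 5 (17.9%) were higher and 2 lower in both multipara libraries, beside 18.2% and 19.5% of all genes. This direction rested on 1 library, as 24 of 28 were above 0 without multipara replicate 1 and 8 of 28 without multipara replicate 2. The insulin genes were at 95085 and 99493 against 98708 and 122460 CPM for *Ins1* and at 248080 and 258930 against 245510 and 325200 CPM for *Ins2*, and the groups overlapped in both. *Glp1r*, the receptor of the incretin GLP-1, was at 415 and 411 against 514 and 554 CPM (0.37 ± 0.10) and was called by DESeq2. The GIP receptor *Gipr* (0.25 ± 0.12) and the insulin gene activator *Mafa* (168 and 145 against 177 and 209 CPM, 0.30 ± 0.13) were higher in both multipara libraries as well. *G6pc2*, the islet glucose-6-phosphatase that opposes glucokinase, was at 1736 and 1625 against 1249 and 1518 CPM (-0.28 ± 0.15). Among 21 genes of prohormone processing and secretory granules, 19 were below 0 and 9 were lower in both multipara libraries, beside 46.8% and 19.5% of all genes, although the median of -0.13 came to -0.05 without multipara replicate 1. *Pam*, which amidates peptide hormones, was at 384 and 362 against 252 and 304 CPM (-0.43 ± 0.13). The prohormone convertase *Pcsk2* was at 3539 and 3538 against 2747 and 3194 CPM, and its chaperone *Scg5* had a log2 fold change of -0.39 ± 0.15.

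The chaperones of the cytosolic heat shock response were lower together. These proteins refold damaged proteins, and heat shock factor 1 switches on their genes through paired GAA units. All 18 tested members had a log2 fold change below 0, beside 46.8% of all genes, with a median of -0.22. Of them 13 were close and lower in both multipara libraries, beside 17.3% of all genes. The 18 stayed below 0 without multipara replicate 1 (median -0.30), and 17 did so without multipara replicate 2 (median -0.19). *Hspa1a* and *Hspa1b* encode the inducible Hsp70 on chromosome 17. *Hspa1a* was at 94.1 and 88.5 CPM in virgin and 48.4 and 56.6 CPM in multipara islets (-0.80 ± 0.10), and *Hspa1b* was at 60.0 and 57.2 against 30.0 and 36.9 CPM (-0.81 ± 0.12). Both were DESeq2 calls, but their transcripts share a run of 638 identical bases, so that the division of reads between them is uncertain. The small heat shock protein *Hspb1* was at 11.1 and 11.9 against 6.83 and 6.58 CPM (-0.78 ± 0.13). *Hspa4l*, an Hsp110-type nucleotide exchange factor, was at 37.2 and 36.0 against 26.4 and 28.1 CPM (-0.43 ± 0.08). *Dnajb1*, the Hsp40 partner of Hsp70, was at 48.9 and 46.8 against 37.7 and 35.0 CPM (-0.40 ± 0.08). In each of these genes both multipara replicates lay below both virgin replicates.

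RefSeq promoters on GRCm38.p6 were in the reference table for 13 of the 18 chaperone genes. The paired motif, TTCNNGAA or GAANNTTC, each its own reverse complement and able to overlap the other, was in the 250 bases before the start of 9 of the 13 genes. It was in 12.8% of all 32851 promoters, which is 14.5% of 27025 genes. Of the 9 genes with the paired motif, 6 were lower in both multipara libraries, beside 13 of all 18 chaperone genes (72.2%) and 19.5% of all genes. Whether the motif goes with the difference was not tested. The 3 promoters shown belong to the members with the largest differences. They are the 150 bases before the start, with the paired motif in capitals. They lie at chr17:34972157-34972306 (*Hspa1a*, minus strand), chr17:34959239-34959388 (*Hspa1b*, minus strand) and chr5:135887769-135887918 (*Hspb1*, plus strand). The first 2 were identical at 149 of 150 positions, so that they are not independent examples, and each match is a description of the letters and not a site of binding.
Hspa1a: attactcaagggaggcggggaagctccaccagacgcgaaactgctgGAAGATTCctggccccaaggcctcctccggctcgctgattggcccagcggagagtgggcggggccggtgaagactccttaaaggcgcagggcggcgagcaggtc
Hspa1b: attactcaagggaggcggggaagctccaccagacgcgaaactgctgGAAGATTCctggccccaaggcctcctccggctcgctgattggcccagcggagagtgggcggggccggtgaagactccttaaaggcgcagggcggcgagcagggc
Hspb1: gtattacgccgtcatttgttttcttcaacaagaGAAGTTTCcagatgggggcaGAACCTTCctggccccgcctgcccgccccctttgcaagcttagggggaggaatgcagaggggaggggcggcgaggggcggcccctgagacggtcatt

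Immediate early genes, which cells switch on within minutes of a stimulus, were mostly below 0. Of 21 tested, 16 were below 0 and 11 were lower in both multipara libraries, beside 46.8% and 19.5% of all genes, with a median of -0.24. Without multipara replicate 1, 20 were below 0 (median -0.41), and without multipara replicate 2, 13 were (median -0.20). *Fos* was at 509 and 436 against 341 and 301 CPM (-0.56 ± 0.13), and *Egr1* was at 275 and 229 against 175 and 167 CPM (-0.56 ± 0.12). Both encode activity-dependent transcription factors and both were DESeq2 calls. *Atf3*, a stress-induced repressor, was at 25.4 and 15.8 against 9.91 and 10.6 CPM (-1.01 ± 0.25), and the factor *Klf4* had a log2 fold change of -0.39 ± 0.12.

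**Figure D3:**
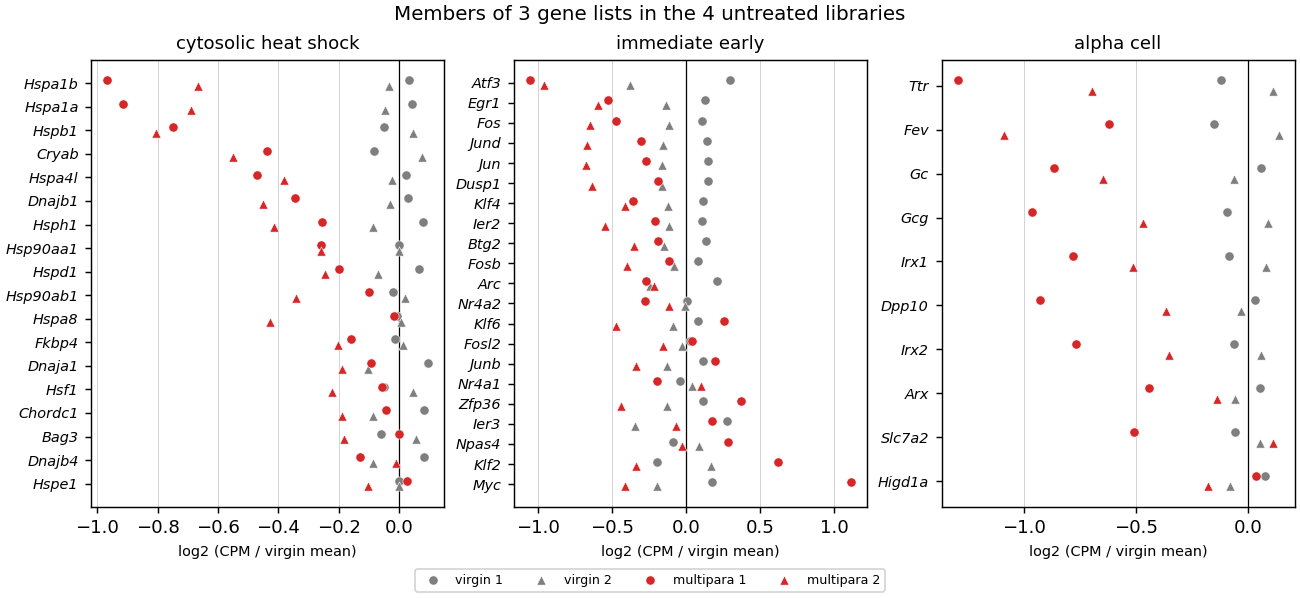
Tested members of the cytosolic heat shock and immediate early lists and 10 of the 11 of the α cell list, ordered by fitted fold change, with each library as the log2 ratio of its CPM to the virgin mean (grey, virgin; red, multipara; circles, replicate 1; triangles, replicate 2). In the heat shock panel 13 of 18 genes have both red points to the left of both grey ones, in the immediate early panel 11 of 21 and in the α cell panel 8 of 10.

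The unfolded protein response, which relieves the endoplasmic reticulum of misfolded proteins, was level as a group. Of 37 genes, 18 were above 0 and 19 below, with a median of -0.0011. In both multipara libraries 5 (13.5%) were higher and 3 (8.1%) lower, shares below the 18.2% and 19.5% of all genes. Beside *Nupr1*, *Derl3*, a factor in the removal of misfolded proteins, was at 6.55 and 5.56 against 9.51 and 9.67 CPM (0.66 ± 0.16), and the chaperone *Fkbp11* was at 27.7 and 22.4 against 31.2 and 34.1 CPM (0.38 ± 0.13). *Ddit3*, the death-promoting factor CHOP, was at 54.7 and 72.6 against 70.0 and 80.2 CPM and overlapped, as did *Sdf2l1*, at 52.6 and 40.8 against 55.7 and 49.2 CPM. *Atf5* was at 232 and 291 against 313 and 338 CPM (0.32 ± 0.14). *Atf3*, given with the immediate early genes, also belongs to the unfolded protein response list and had its lowest log2 fold change (-1.01 ± 0.25). The senescence gene *Cdkn2a*, which encodes p16, was at 0.574 and 0.383 CPM in virgin and 1.08 and 0.981 CPM in multipara islets, a log2 fold change of 1.10 ± 0.38. Both multipara libraries were higher, at a level of few counts. Of the 16 senescence genes tested 14 were above 0, beside 53.2% of all genes, but 9 were above 0 without multipara replicate 1.

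Among genes of hormone action, metabolism and the clock, *Esr1*, the estrogen receptor α, was at 0.483 and 0.607 CPM in virgin and 1.92 and 1.67 CPM in multipara islets (1.71 ± 0.31). *Irs2*, the insulin receptor substrate that supports β cells, was at 26.2 and 29.8 against 22.3 and 19.6 CPM (-0.42 ± 0.12). *Gpx3*, the secreted glutathione peroxidase, was at 814 and 848 against 461 and 606 CPM (-0.64 ± 0.16) and was a DESeq2 call. All 3 had groups that did not overlap. *Dbp*, an output gene of the circadian clock, was at 21.8 and 24.2 against 37.4 and 34.8 CPM (0.65 ± 0.09) and was called by DESeq2, while the 19 clock genes as a list had 11 above 0 and 8 below. *Lars2*, the mitochondrial leucyl-tRNA synthetase, was at 288 and 153 CPM in virgin and 1306 and 1531 CPM in multipara islets (2.69 ± 0.35), 6.44 times as high on average, and was a DESeq2 call. It was the only one of 17 tRNA synthetases higher in both multipara libraries, and its virgin libraries were too far apart for it to count as close.

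Nuclear genes of the respiratory chain were slightly higher. Of 82 tested, 62 were above 0 and 41 were higher and 9 lower in both multipara libraries, beside 18.2% and 19.5% of all genes, with a median of 0.09. Without multipara replicate 1, 67 were above 0, and without multipara replicate 2, 49. *Ndufa3* of complex I was at 45.8 and 53.4 against 67.1 and 65.5 CPM (0.42 ± 0.10), and *Uqcrq* of complex III was at 83.8 and 86.1 against 103 and 111 CPM (0.33 ± 0.08). *Cox5a* of complex IV and *Atp5g1* of ATP synthase had log2 fold changes of 0.30 ± 0.08 and 0.27 ± 0.07. All 4 were higher in both multipara libraries. Of 78 cytosolic ribosomal proteins 74 were above 0 and 26 were higher in both, beside 53.2% and 18.2% of all genes. Their median of 0.10 was 0.034 without multipara replicate 1 (59 above 0) and 0.16 without multipara replicate 2. Mitochondrial reads can be divided with nuclear copies of the mitochondrial genome. *Gm29216*, a pseudogene on chromosome 1 with a run of 479 bases in common with *mt-Co1*, was named after its values were seen, at 990 and 1307 against 461 and 564 CPM (-1.16 ± 0.19). *Gm28438*, also named after its values were seen, shares a run of 342 bases with *mt-Nd3* and went the other way, at 462 and 453 against 601 and 623 CPM (0.42 ± 0.09). Both were DESeq2 calls.

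Markers of other cells set multipara replicate 1 apart. T and NK cell markers summed to 13.1 and 9.9 CPM in virgin islets, 131 CPM in multipara replicate 1 and 4.0 CPM in multipara replicate 2. Macrophage markers summed to 215 and 193 CPM, then 839 and 215 CPM, and those of B and plasma cells to 1127 and 112 CPM, then 1634 and 76.4 CPM. Only 1 library per group was high in the last of these. Cell cycle genes went with them: all 64 tested were above 0 with a median of 1.17, but the median was -0.20 without multipara replicate 1 and 51 of the 64 were then below 0. *Mki67*, the proliferation marker, was at 5.16 and 2.78 CPM in virgin islets and at 31.3 and 1.67 CPM in multipara replicates 1 and 2. Interferon and MHC class I genes were likewise all above 0 (25 of 25, median 1.14), with a median of -0.16 without multipara replicate 1. Red blood cell genes were the exception, since all 8 tested were higher in both multipara libraries, beside 18.2% of all genes. The globin gene *Hba-a2* was at 47.4 and 72.2 CPM in virgin and 863 and 177 CPM in multipara islets, *Hba-a1* at 10.2 and 12.2 against 135 and 27.5 CPM, and the transferrin receptor *Tfrc*, which many dividing cells also use, at 47.7 and 44.3 against 57.0 and 58.2 CPM. Endothelial markers were level, with 4 of 12 above 0 and none outside the range of the other group in both libraries. Whether blood or lymphoid tissue in these libraries has a part in the other differences was not tested. The choice of close genes is no such test. It drops only genes whose replicates differ by more than its limit, so genes raised in both multipara libraries can pass it. Of the 8 red blood cell genes, 1 was close, namely *Tfrc*.

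**Figure D4:**
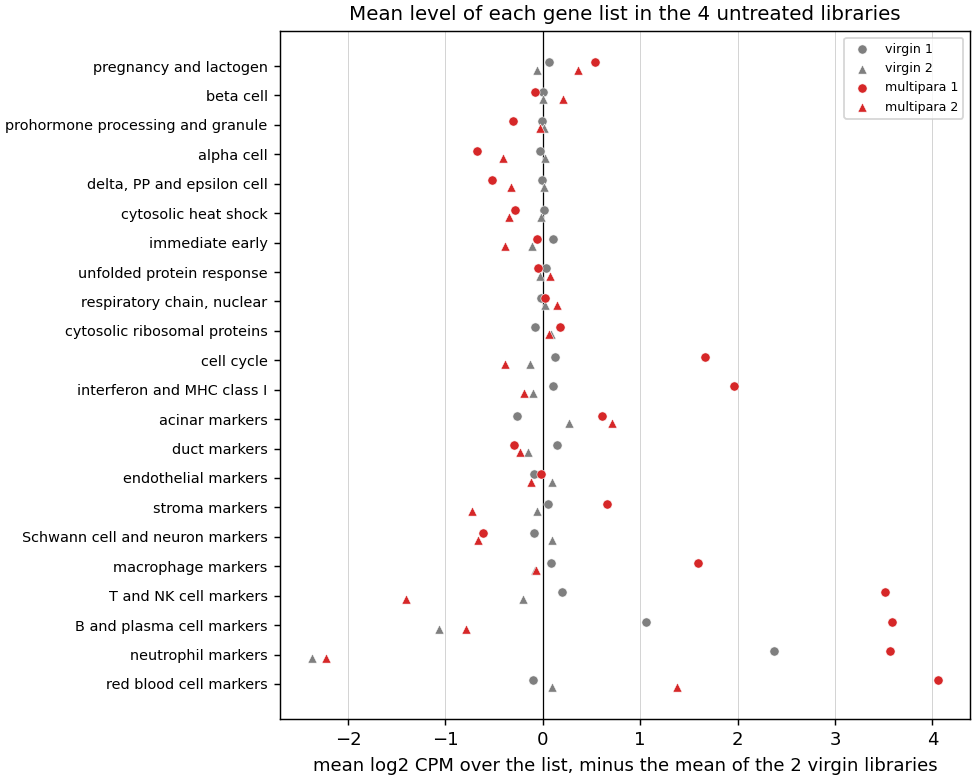
Mean log2 CPM of 22 gene lists in each untreated library, minus the mean of the virgin libraries (grey, virgin; red, multipara; circles, replicate 1; triangles, replicate 2). Multipara replicate 1 lies more than 1.5 above 0 for cell cycle, interferon, macrophage, T and NK cell, B and plasma cell, neutrophil and red blood cell genes (virgin replicate 1 does so for neutrophil genes too). Both multipara replicates lie on the same side of 0 for heat shock, α cell, δ cell, acinar, Schwann cell and red blood cell genes. They also do so for pregnancy, prohormone, immediate early, respiratory chain, ribosomal, duct and endothelial genes.

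The S-961 libraries share no library with the untreated ones, so the values of the close genes there are a separate measurement. All directions in it rest on the labels multipara and virgin of these libraries, which were not tested. Of the 12 genes higher in untreated multipara islets, 8 were below 0 in the S-961 comparison, a share near the 57.3% of all genes. Of the 12 lower ones, 11 were above 0 there, beside 42.7% of all genes. The shares lay nearer to those of all genes over all close genes with an average log2 CPM of at least 2, of which 36.1% of the 1871 higher and 47.5% of the 2139 lower ones were above 0. No gene was called in the S-961 comparison (0.0% of 16784 at an adjusted p under 0.05 by edgeR, 9.71% at an unadjusted p under 0.05), whereas 525 (3.13%) were called without the library labelled multipara S-961 replicate 4. That second fit was added after seeing the data. In it, *Lrrc55*, *Matn2*, *Ephb6* and *Tbc1d4* were lower and *Ache* and *Nsg1* higher at edgeR adjusted p-values from 0.0103 to 0.0495.

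On a scale set over all 11 libraries, *Lrrc55* was at 0.727 and 0.847 CPM in untreated virgin and 24.9 and 22.8 CPM in untreated multipara islets. After S-961 it was at 7.54, 6.82 and 5.34 CPM in virgin islets and at 0.596, 0.320, 1.96 and 4.43 CPM in multipara islets. By the labels of the libraries, the order of the groups was thus the opposite of that without treatment. The study, however, named *Lrrc55* and *Matn2* among genes raised in multipara islets after S-961. It also reported cell cycle genes as lower there, whereas by the labels the 64 tested here had a median log2 fold change of 2.93. *Mki67* was at 93.9, 65.5, 43.5 and 3.93 CPM in S-961 multipara islets and at 3.43, 13.9 and 3.04 CPM in S-961 virgin islets. Whether the S-961 labels match the mice was not tested, so the direction after S-961 rests on the labels. By them the log2 fold change of *Lrrc55* was -1.83 ± 0.71 (edgeR adjusted p = 0.453). It was -2.73 without multipara S-961 replicate 4 (edgeR adjusted p = 0.0495), a fit chosen after seeing the data. *Matn2* was at 132, 143 and 148 CPM in S-961 virgin islets and at 41.7, 59.2, 27.0 and 115 CPM in S-961 multipara islets, against 21.4 and 19.7 and then 51.4 and 49.99 CPM without treatment. *Pdk4* was at 19.8, 26.8 and 21.9 CPM in virgin and 40.6, 41.8, 31.1 and 27.8 CPM in multipara islets after S-961, against 42.9 and 45.7 and then 18.3 and 23.3 CPM without it. In *Lrrc55*, *Matn2* and *Pdk4* the S-961 groups did not overlap. The difference of the parity effect between the treatments was tested as an interaction over all 11 libraries and called no gene (0.0% of 17996 at an adjusted p under 0.05 by edgeR, 6.55% at an unadjusted p under 0.05). The interaction log2 value of *Lrrc55* was -6.76 with an adjusted p of 0.372, and *Lars2* had the value -2.91 with an adjusted p of 0.222.

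**Figure D5:**
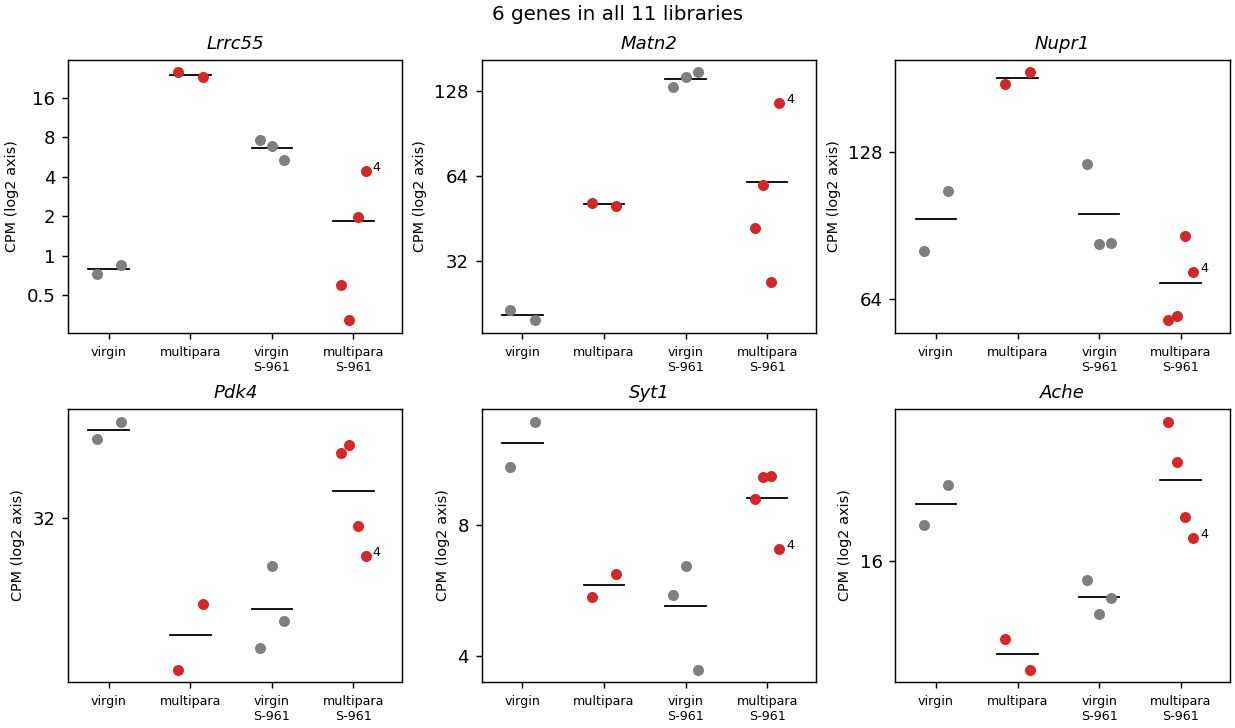
CPM (log2 axis, scaled over all 11 libraries) of 6 genes in each library, grouped by label, with lines at the group means (grey, virgin; red, multipara; the number 4 marks multipara S-961 replicate 4). *Lrrc55*, *Matn2* and *Nupr1* have both untreated multipara libraries above both virgin ones and a lower multipara than virgin mean after S-961; *Pdk4*, *Syt1* and *Ache* have the reverse in both.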

How the data were processed

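Islet RNA (Trizol, poly(A)-selected stranded libraries, per the labels) was measured in 11 bulk libraries, of which 4 are compared here. The authors deposited estimated counts (expected counts) per gene, not normalized; the submitters' processing notes name STAR, RSEM, GRCm38 and mm10, without versions. All 55536 genes matched GENCODE M21, and counts were rounded. Genes with few counts were removed with filterByExpr (minimum count 10, total 15), which left 15812. Multipara was tested against virgin with edgeR 4.0.16 (TMM, quasi-likelihood F-test, Benjamini-Hochberg over all genes, threshold 0.05); DESeq2 1.42.0, other scalings, other filters, a replicate block and leaving out each library were alternatives. An exact permutation test of 2 against 2 libraries cannot go below p = 0.333 (two-sided), so none was used. CPM were TMM-scaled over the 4 libraries (log2 CPM with a prior count of 2). On simulated counts with 200 genes changed 4-fold in this comparison (15812 genes), edgeR recovered 141 with 4 false calls and DESeq2 153 with 30. The simulation drew both libraries of a group from the same means, so none stood apart as multipara replicate 1 does. Its counts therefore need not hold for the real libraries.

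Named were the 12 close genes per direction with the largest fold change (average log2 CPM of at least 2, no clone or pseudogene symbols), genes the study names, pregnancy genes, up to 4 genes with the smallest p-value per list, and 8 genes per direction that differ most between multipara replicates. The members and the 38 gene lists were chosen with earlier results of these data known. Lists were described by counts and medians. A few members counted in these totals are not reported here by name. Pairs of libraries differed by 10.8 (virgin) and 39.6 (multipara) chi-square units per gene, so no library was a copy of another. Promoter sequences are from RefSeq (GRCm38.p6).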

Additional observations from a re-analysis of the deposited data

Results flagged for a closer look

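Of the genes named with values, 2 had 1 library far from the other 3 in the multipara S-961 group, by a gap over the group's range above the 95% critical value of Dixon's test. Chance gives about 1 in 20 such gaps, and up to 83 genes were looked at. *Dbp* was at 52.7 CPM in replicate 3 against 13.2 to 14.9 CPM (gap 0.911). *Esr1* was at 4.14 CPM in replicate 4 against 0.271 to 0.412 CPM (gap 0.907), while the 3 virgin S-961 libraries were at 2.20 to 4.64 CPM.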

How the results depend on the processing

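With 0 genes called in the comparison of untreated islets (889 at an unadjusted p under 0.05), alternatives called 56 (DESeq2), 3 (no filter on low counts), 1 (at least 50 counts in 2 libraries) and 267 (macrophage marker score as a term), and 0 to 1451 when 1 library was left out: 0 without either virgin library, 31 without multipara replicate 1 and 1451 without multipara replicate 2, where the lone multipara library is assumed to vary like the virgin pair. DESeq2 size factors, upper quartile factors and all 11 libraries in one fit called 0. The replicate block also called 0 genes (715 at an unadjusted p under 0.05); the numbers do not mark litters or batches, and same-numbered libraries had a correlation of deviations of 0.329 over 2 pairs. Counts of close genes stayed within 1.5 times under every alternative for them. The log2 fold change turned in *Mki67* (-1.08 with the macrophage score, and -1.25 to 2.96 with 1 library left out, the lowest without multipara replicate 1), *Ins2* (-0.053 to 0.36, the lowest without multipara replicate 2) and *Sdf2l1* (-0.0063 to 0.36, the lowest without virgin replicate 2), *Tph2* (-0.70 to 0.73), and after S-961, without multipara S-961 replicate 4 (added after seeing the data), in *mt-Atp8* (-0.030), *Hspa1a* (-0.62) and *Hspa1b* (-0.64); the cause was not tested. The other genes given with a fold change in untreated islets kept their direction. Depth limits *Cdkn2a*, *Aass* and *Esr1*, which rest on few counts.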

Other observations

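Among the genes DESeq2 called, 2 were at 0 throughout 1 group, and both were singled out after their values were seen. *1700047I17Rik2*, an uncharacterised gene on chromosome 12, had 135.64 and 143.31 estimated counts in the virgin libraries and 0 in both multipara libraries and in the 7 S-961 libraries. *Gm49673*, a predicted gene on chromosome 17, had 0 counts in both virgin libraries and 98.40 and 54.59 in the multipara libraries. No fold is given for either.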
